A study of Homo sapiens with 9 samples.

Results

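The collagen genes described here are the 43 protein-coding genes whose symbol names a collagen chain (COL, a type number, A and a chain number), out of 37201 genes with a named probe set on the array. The rule is the symbol alone and uses no measured value. Collagens are the main structural proteins of the extracellular matrix. Each molecule is a helix of chains wound together, and the type decides whether the molecules pack into fibrils, form sheet-like networks in basement membranes, coat existing fibrils or stay anchored in the cell membrane. Procollagen is hydroxylated and folded in the endoplasmic reticulum, exported, trimmed at its ends and crosslinked outside the cell, and it is bound by integrin and discoidin receptors and cut by matrix metalloproteinases. In cholangiocarcinoma the dense collagen stroma is made largely by fibroblasts, and tumour cells contribute basement membrane and some other chains.

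RNA was measured in HuCCT-1, an established line of human cholangiocarcinoma cells, 24 h after transfection with siRNA at a final 40 nM for a combination. combi-1 cells received YAP siRNA 1 with TAZ siRNA 2, combi-2 cells received, by their labels, YAP siRNA 2 with TAZ siRNA 3, a TAZ siRNA not described in the study's methods, and NTC cells received a scrambled siRNA. YAP and TAZ are the transcriptional co-activators that the Hippo pathway restrains, and they act through TEAD factors bound to DNA. Each group had 3 arrays of the same unmodified line, and whether the 3 were grown apart is not stated in the sources used here, so the p-values speak only for the spread between these arrays. A single cell line and 1 time after transient transfection limit what the groups stand for, and since each array read the RNA of a whole culture, fewer cells making a transcript and less RNA per cell cannot be told apart. The question asked was how silencing of both co-activators changed gene expression, here that of the collagen chains.

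All values are log2 RMA signals, so that a difference of 1 is a factor of 2, and array signals of different genes are not compared with each other. Both siRNA targets were lower in each silenced array. YAP1, the gene of YAP, read 6.84, 6.85 and 6.95 in combi-1 arrays, 6.86, 6.73 and 6.97 in combi-2 arrays, and 9.15, 9.06 and 9.08 in NTC arrays. WWTR1, the gene of TAZ, read 6.97, 7.06 and 7.02 in combi-1 arrays, 6.95, 6.98 and 6.99 in combi-2 arrays, and 8.41, 8.30 and 8.38 in NTC arrays. All 7 biliary markers looked up, among them KRT7, KRT19 and EPCAM, lay above the dimmest 40% of probe sets, with mean log2 signals over the list of 10.02 to 10.11 in combi-1, 9.87 to 10.02 in combi-2 and 9.94 to 9.98 in NTC arrays. CDH1, the epithelial cadherin, was the one marker called, higher by 0.39 with combi-1 (adjusted p = 0.0357 from limma). With combi-2 it was at 0.093 (adjusted p = 0.607 from limma). Of the 7 biliary markers, 4 were above 0 with combi-1 and 3 with combi-2, where SOX9 was at −0.20 (adjusted p = 0.274). Of 7 fibroblast and stellate cell markers, DCN, FAP, LUM and PDGFRA were among the dimmest 40%, and the list's mean signal was 5.12 to 5.18 in combi-1, 5.15 to 5.16 in combi-2 and 5.09 to 5.14 in NTC arrays. Of the 43 collagen genes, 6 were among the dimmest 40% of probe sets (COL10A1, COL14A1, COL21A1, COL24A1, COL6A5 and COL6A6). This cut is a rank of signal and does not show which genes were expressed. Of 4 markers measured for each of hepatocytes, endothelium and leukocytes, only 2 per list were in it. Others, such as the hepatocyte marker APOA1 and the endothelial marker VWF, lay above it. Whether the remaining collagen genes were expressed was not tested. 1 array stood apart in how finely its signals were written: 29641 different values occurred in NTC replicate 1, against 7528 in each of the remaining 8.

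Among the collagens, COL8A1 and COL12A1 fell with both siRNA combinations and none rose. COL8A1 encodes the alpha chain of type VIII collagen, a short-chain collagen that builds hexagonal networks below endothelia and other cell layers. COL12A1 encodes type XII collagen, which lies on the surface of type I collagen fibrils. The remaining 41 genes did not pass the test against NTC with either combination, and their values leaned slightly upward. The combinations share the 3 NTC arrays, so their results are not independent of each other.

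With combi-1, 2 of 43 collagen genes passed the threshold of an adjusted p of 0.05 (limma, adjusted by Benjamini-Hochberg over all 37201 genes), against a background of 1.51% of genes called. Both were lower, against a background of 0.833% called lower. None was higher, against a background of 0.68%. Before adjustment, 16 genes were higher with p under 0.05 (background 8.02%) and 2 lower (background 7.65%). With combi-2, again 2 of 43 were called, against a background of 0.75%. Both were lower, against a background of 0.446%, and none was higher, against a background of 0.304%. Before adjustment, 5 were higher with p under 0.05 (background 7.41%) and 2 lower (background 5.85%). These backgrounds cover all genes, whereas the 43 collagen genes are all protein-coding. With only the 18215 protein-coding genes fitted and adjusted by limma, 1095 were called with combi-1 and 733 with combi-2. In that setting 2 of the 43 collagen genes were called with each combination. Both protein-coding counts are larger shares than the backgrounds over all genes. With combi-1 the protein-coding share was above that of the collagen genes, and with combi-2 slightly below it. No excess of called collagen genes is therefore read from these counts.

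COL8A1 had the largest change among the collagen genes. Its log2 signal was 7.00, 6.88 and 6.83 in combi-1 arrays, 7.03, 7.34 and 7.13 in combi-2 arrays, and 8.34, 8.11 and 8.13 in NTC arrays. Each silenced array was below each NTC array, and the combi-1 arrays were also below the combi-2 arrays. The means were 6.90 ± 0.084 in combi-1, 7.17 ± 0.155 in combi-2 and 8.19 ± 0.128 in NTC (SD, n = 3 each). COL8A1 fell by 1.29 on the log2 scale with combi-1 (standard error 0.0966, 95% interval −1.51 to −1.07, adjusted p = 0.000447 from limma), which left 0.409 of the NTC signal. It fell by 1.02 with combi-2 (interval −1.25 to −0.80, adjusted p = 0.00352), which left 0.491 of the NTC signal. Both calls held under each of the 18 other settings tried, with log2 fold changes of −1.34 to −1.22 for combi-1 and −1.11 to −0.95 for combi-2.

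The fall of COL8A1 was not seen in the chains closest to it. COL8A2, the other chain of type VIII collagen, read 6.36, 6.28 and 6.24 in combi-1 arrays, 6.29, 6.38 and 6.06 in combi-2 arrays, and 6.42, 6.10 and 6.14 in NTC arrays, so that all 3 groups overlapped. Its log2 fold change was 0.070 with combi-1 (interval −0.17 to 0.31, adjusted p = 0.776) and 0.022 with combi-2 (interval −0.22 to 0.27, adjusted p = 0.951). COL10A1, the type X chain of growth plate cartilage and the third short-chain gene, was at 0.16 with combi-1 and 0.19 with combi-2, neither past the test. Its probe set is dim, so a fall might not be seen there. The difference between COL8A1 and these genes was not itself tested.

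COL12A1 changed less than COL8A1. It read 7.14, 7.34 and 7.22 in combi-1 arrays, 7.23, 7.24 and 7.36 in combi-2 arrays, and 7.69, 7.67 and 7.68 in NTC arrays. Again no silenced array reached an NTC array, while the combi-1 and combi-2 arrays overlapped each other. The means were 7.23 ± 0.101 in combi-1, 7.28 ± 0.075 in combi-2 and 7.68 ± 0.014 in NTC (SD, n = 3 each). COL12A1 fell by 0.45 on the log2 scale with combi-1 (standard error 0.0667, interval −0.60 to −0.30, adjusted p = 0.0164 from limma) and by 0.41 with combi-2 (interval −0.56 to −0.25, adjusted p = 0.0387). The combi-1 call was lost without NTC replicate 1 (adjusted p = 0.0768), NTC replicate 2 (0.0712), combi-1 replicate 1 (0.0693) or combi-1 replicate 3 (0.0825). The combi-2 call was lost when any 1 of the 9 arrays other than combi-2 replicate 3 was left out (adjusted p = 0.0524 to 0.157) and when only its own 6 arrays were fitted (0.114), with the log2 fold change between −0.41 and −0.38 in all of these.

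**Figure D1:**
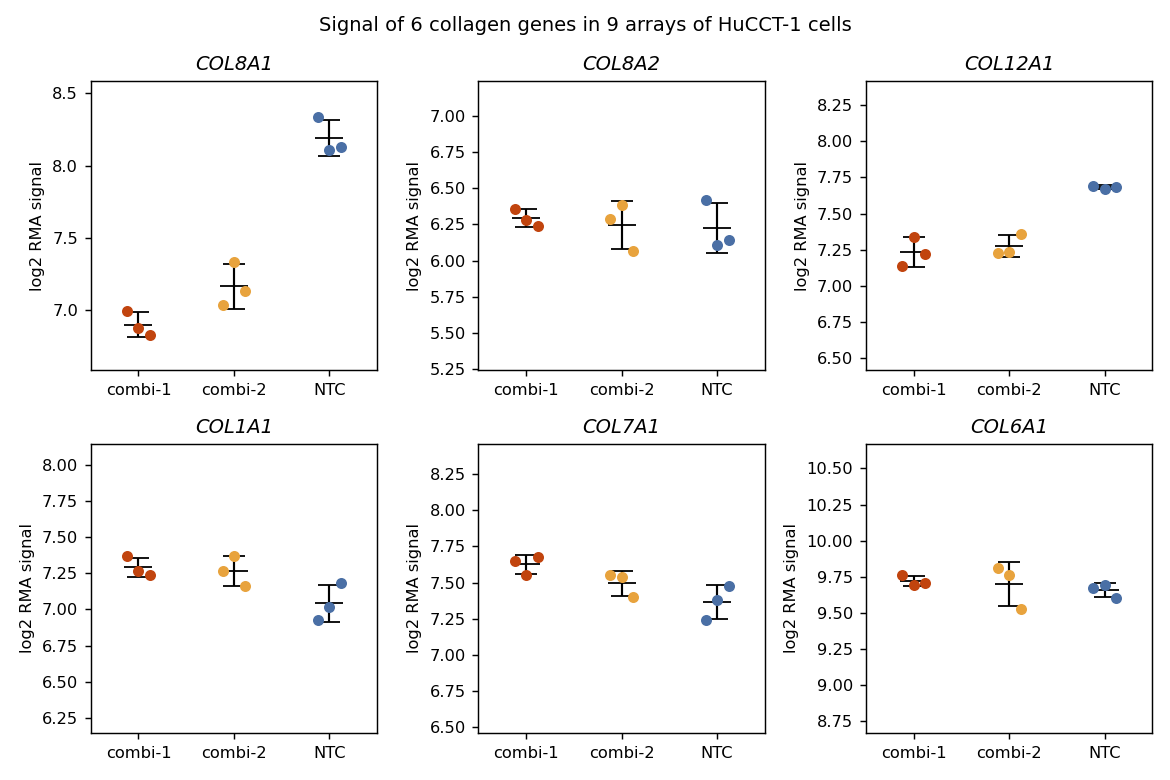
Log2 RMA signal (y axis) of COL8A1, COL8A2, COL12A1, COL1A1, COL7A1 and COL6A1 in the 3 arrays of combi-1, combi-2 and NTC (x axis), where dots are arrays and bars the mean and SD, and each panel has its own y range. COL8A1 is near 7 in the silenced arrays and above 8 in the NTC arrays, COL12A1 is lower in all silenced arrays, and the groups of COL8A2 overlap.

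The promoter of COL12A1, from RefSeq, is printed because this gene was called with both combinations. The window runs from 250 bases before to 50 bases after the gene's start and was searched for GGAATG, the core letters of the TEAD binding motif, on both strands, and for TGANTCA, the AP-1 motif, where N is any base, also on both strands. The window lies at chr6:75206004-75206303 on the minus strand (GRCh38.p14) and 63.3% of its bases are G or C. The capitals mark the single GGAATG, which begins 167 bases before the start.
COL12A1: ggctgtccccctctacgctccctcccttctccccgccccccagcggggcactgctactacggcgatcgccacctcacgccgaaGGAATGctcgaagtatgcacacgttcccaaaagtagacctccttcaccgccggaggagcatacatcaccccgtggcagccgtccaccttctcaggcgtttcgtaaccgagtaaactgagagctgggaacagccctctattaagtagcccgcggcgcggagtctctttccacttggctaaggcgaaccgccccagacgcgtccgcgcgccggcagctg

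Windows were searched for 31 of the 43 collagen genes, 43 windows in all, with COL8A1 not among them. GGAATG was present in 3 of them, those of COL12A1, COL10A1 and COL11A2, or 6.98% of the collagen windows, against 12.2% of the 22199 windows of protein-coding genes and 14% of all 35116 windows. COL10A1 and COL11A2 did not pass the test with either combination. TGANTCA was present in 1 collagen window, 2.33%, against 6.15% of protein-coding windows. A match in these letters is a description of the window and not a measured binding site.

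The 11 fibrillar chains, which pack into the striped fibrils of connective tissue, all had values above 0 with both combinations, and none passed the test. Their median log2 fold change was 0.17 with combi-1 and 0.095 with combi-2, beside medians of 0.017 and 0.016 over all genes tested. COL1A1, the main chain of type I collagen, had the highest values of the group and read 7.37, 7.26 and 7.24 in combi-1 arrays, 7.26, 7.37 and 7.16 in combi-2 arrays, and 6.92, 7.02 and 7.18 in NTC arrays. The combi-1 arrays were above all NTC arrays, while 1 combi-2 array was below the highest NTC array. Its log2 fold change was 0.25 with combi-1 (adjusted p = 0.212) and 0.22 with combi-2 (adjusted p = 0.309). Its partner chain COL1A2 was at 0.10 and 0.070, and COL3A1, the type III chain found with type I in soft tissue, at 0.12 and 0.085. For COL5A2 and COL11A1, chains of the minor fibrillar types V and XI that regulate fibril width, both silenced groups lay above all NTC arrays, though by only 0.065 and 0.073 for COL5A2 and by 0.098 and 0.11 for COL11A1.

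The 6 type IV chains, which form the network of basement membranes, gave a median of 0.095 with combi-1 and 0.079 with combi-2, and none passed the test. COL4A1 and COL4A2, the pair that makes the common form of this network, were at 0.11 and 0.18 with combi-1 and at 0.047 and 0.13 with combi-2. COL4A4, a chain of the kidney and inner ear form, was the only collagen besides COL8A1 and COL12A1 with values below 0 in both comparisons, at −0.036 (adjusted p = 0.749) and −0.0049 (adjusted p = 0.977). For COL4A5, the X-linked chain mutated in Alport syndrome, only combi-2 arrays stood above NTC: the signal was 6.84, 6.98 and 6.93 in combi-1 arrays, 6.98, 7.01 and 7.03 in combi-2 arrays, and 6.87, 6.84 and 6.90 in NTC arrays. Its log2 fold change of 0.14 with combi-2 did not pass the test (adjusted p = 0.329), nor did that of 0.048 with combi-1.

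Among the 10 fibril-associated chains, COL12A1 was the only one called and the only one below 0 against NTC, and the group's medians were 0.12 with combi-1 and 0.092 with combi-2. COL14A1, the type XIV chain closest in build to type XII, had values of 0.084 (adjusted p = 0.463) and 0.13 (adjusted p = 0.341). It read 4.894, 4.947 and 4.922 in combi-1 arrays, 4.976, 4.954 and 4.964 in combi-2 arrays, and 4.768, 4.892 and 4.852 in NTC arrays, so both silenced groups cleared NTC, by a very small gap and on a dim probe set. COL16A1, found in skin and cartilage matrix, was at 0.18 (adjusted p = 0.187) and 0.12 (0.416), and COL19A1, a rare chain of basement membrane zones, at 0.097 and 0.099. The chains of type IX collagen, which decorate cartilage fibrils, were unequal with combi-1: COL9A1 was at 0.061, COL9A2 at 0.18 and COL9A3 at 0.25, of which COL9A3 had the lowest adjusted p (0.175). With combi-2 they were at 0.062, 0.032 and 0.088. COL9A2 turned negative with combi-2 when NTC replicate 2 or combi-2 replicate 1 was left out.

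The 5 type VI chains, which form beaded filaments around cells, had medians of 0.089 with combi-1 and 0.093 with combi-2. COL6A1, COL6A2 and COL6A3, the chains of the common form, were at 0.063, 0.15 and 0.13 with combi-1 and at 0.042, 0.13 and 0.093 with combi-2. COL6A5, another chain of this type, was at 0.089 and 0.15. Neither these nor COL6A6 passed the test, although COL6A3 and COL6A5 lay above NTC in each silenced array.

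COL7A1, the anchoring fibril collagen that ties epithelial basement membrane to the stroma, had the highest value of all collagen genes with combi-1. It read 7.65, 7.55 and 7.68 in combi-1 arrays, 7.55, 7.54 and 7.40 in combi-2 arrays, and 7.24, 7.38 and 7.47 in NTC arrays. Combi-1 arrays were above all NTC arrays, the lowest combi-1 array matched the highest combi-2 array to 2 decimals, and combi-2 arrays overlapped NTC. Its log2 fold change was 0.26 with combi-1 (interval 0.085 to 0.43, adjusted p = 0.165) and 0.13 with combi-2 (adjusted p = 0.510). The multiplexins COL15A1 and COL18A1, basement membrane collagens that carry sugar chains, were at 0.12 and 0.14 with combi-1 and at 0.046 and 0.045 with combi-2. The transmembrane chains COL13A1, COL23A1 and COL25A1 were at 0.077, 0.24 and 0.15 with combi-1 and at −0.0013, 0.10 and 0.13 with combi-2, and both silenced groups of COL25A1, a neuronal collagen, were above NTC. COL17A1, also listed in this class, was not among the genes tested. COL26A1 and COL28A1, which stand outside these classes, were at 0.091 and 0.13 with combi-1 and at −0.0045 and 0.10 with combi-2.

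**Figure D2:**
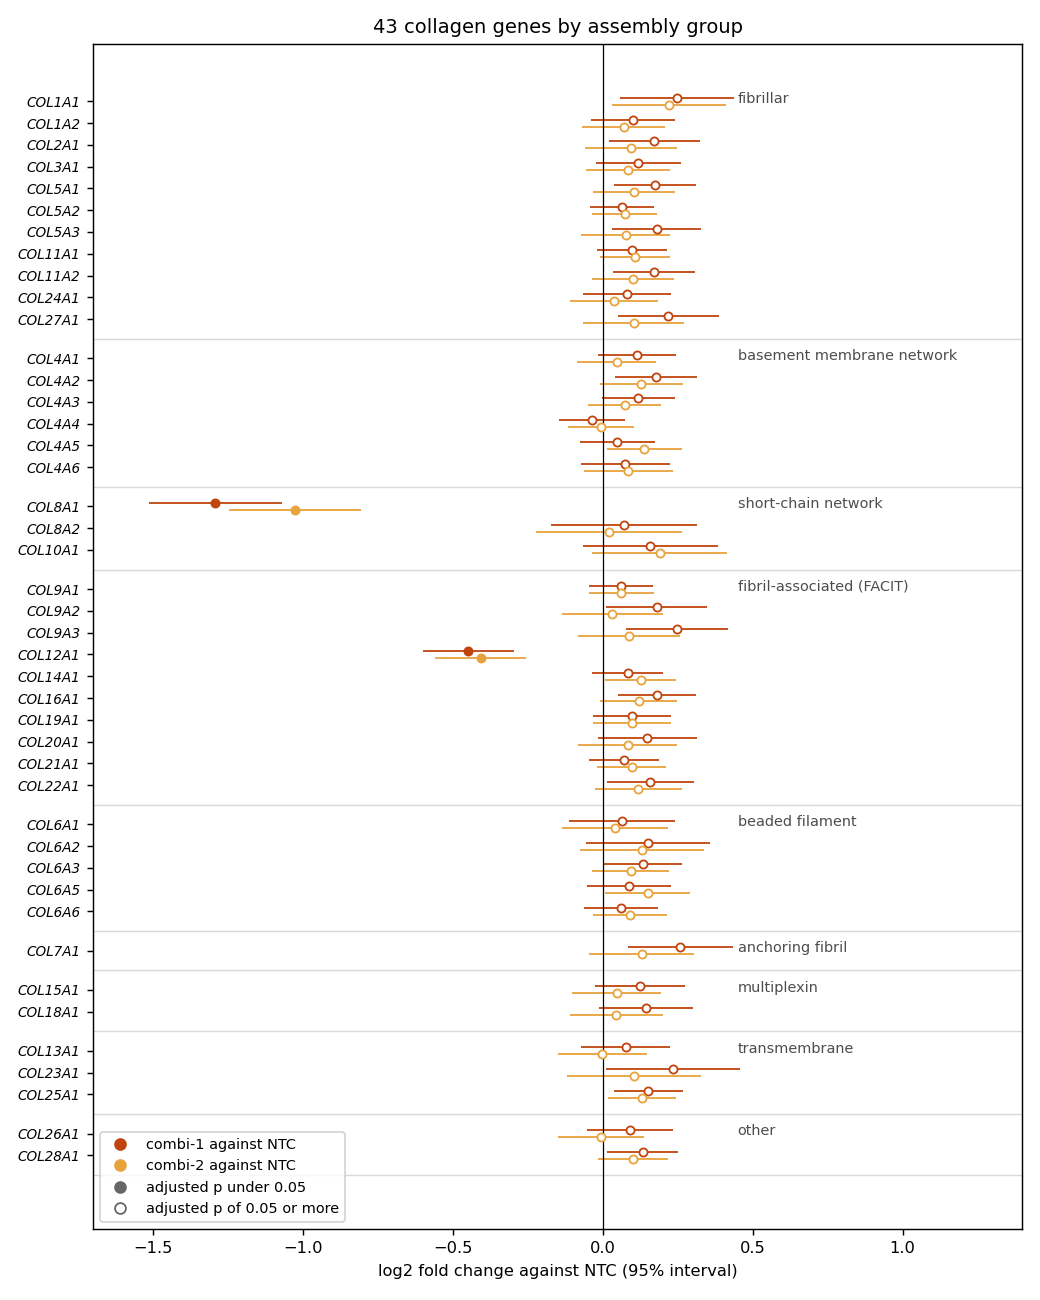
Log2 fold change against NTC with its 95% interval (x axis) for the 43 collagen genes (y axis) in their assembly groups, for combi-1 (red, upper) and combi-2 (orange, lower), where filled dots have an adjusted p under 0.05. COL8A1 and COL12A1 are the only filled dots, and the other 41 genes lie between −0.036 and 0.26.

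The 41 genes that were not called can be bounded. With combi-1 their 95% intervals ran from −0.17 at the lowest bound to 0.46 at the highest, and with combi-2 from −0.22 to 0.42, so that all 41 intervals lay within 0.5 of 0 on the log2 scale in both comparisons. The moderated standard error of a collagen gene was 0.063 at the median and 0.107 at most. Which of the 41 genes were expressed was not tested. For a gene whose signal was only array background, the interval does not bound a change in its RNA.

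Within those bounds, most collagen genes leaned the same way. Of 43 genes, 40 were above 0 with combi-1 and 38 with combi-2, and the median log2 fold change was 0.12 and 0.091, beside 0.029 in both comparisons for the 18215 protein-coding genes. Since that median is above 0, most protein-coding genes were above 0 as well. All 3 combi-1 arrays were above all 3 NTC arrays for 29 of 43 collagen genes, against a background of 15.8% of all genes and 22.5% of protein-coding genes. All 3 were below NTC for 3 genes (COL8A1, COL12A1 and COL4A4), against a background of 10.1%. The count of 29 was smaller after centring on protein-coding genes, as given further below. With combi-2, all 3 arrays were above NTC for 11 of 43 genes, against a background of 11.6% of all genes and 16.3% of protein-coding genes, and below NTC for 2, against a background of 6.5%. The combi-2 count moved with single arrays: it was 26 without NTC replicate 3, against 18.1% of all genes and 23.1% of protein-coding genes with the same array left out, and 29 without combi-2 replicate 3, against 21.3% and 29.9%.

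The lean differed from array to array. Relative to each gene's mean over the 9 arrays, the median collagen gene stood at 0.087, 0.033 and 0.045 in combi-1 replicates 1, 2 and 3, at 0.052, 0.029 and −0.042 in combi-2 replicates 1, 2 and 3, and at −0.109, −0.075 and −0.018 in NTC replicates 1, 2 and 3. The median protein-coding gene stayed between −0.024 and 0.028 in all 9 arrays. NTC replicate 1 held the lowest signal of 24 collagen genes and NTC replicate 2 that of 10, while combi-1 replicate 1 held the highest signal of 22. Combi-2 replicate 3 stood below NTC replicate 3 by this measure and held the lowest signal of 5 genes. Without NTC replicate 1 the median log2 fold change was 0.10 with combi-1 and 0.066 with combi-2.

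**Figure D3:**
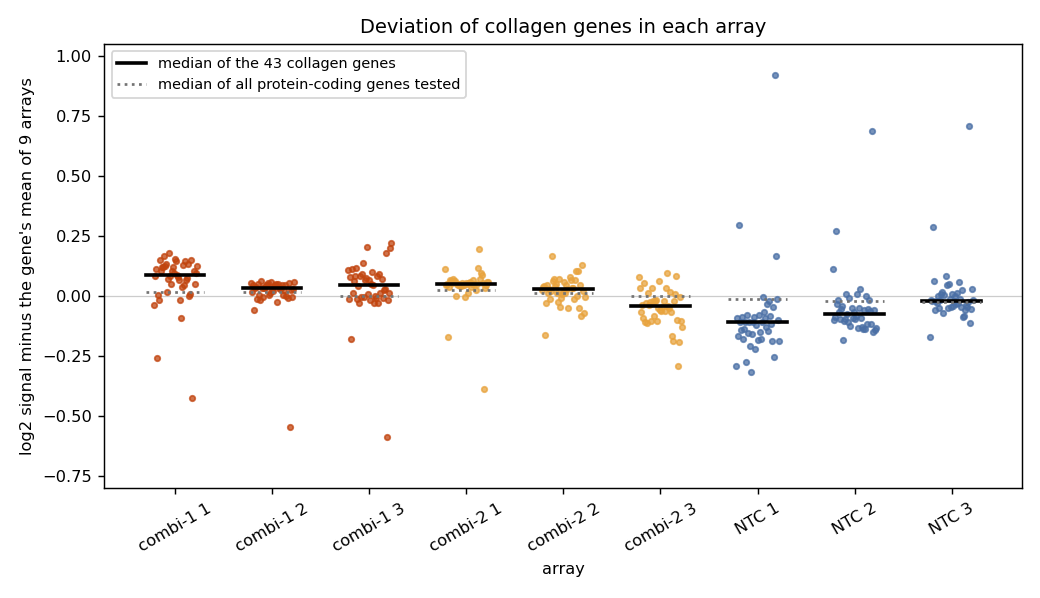
Log2 signal of each collagen gene minus its mean over the 9 arrays (y axis) in each array (x axis), where dots are the 43 genes, solid lines their median and dotted lines the median of all protein-coding genes tested. The collagen median is highest in combi-1 replicate 1 (0.087) and lowest in NTC replicate 1 (−0.109), and the dots far above 0 in the NTC arrays are COL8A1 and COL12A1.

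The combinations were also set against each other. No collagen gene passed the test of combi-2 against combi-1 (0 of 43 by limma, against a background of 0.333% of genes called, also 0 by an ordinary linear model), and COL8A1 was the only one with an unadjusted p under 0.05 (0.0232, adjusted p = 0.459, background 8.87%). Its combi-2 signal was higher than its combi-1 signal by 0.27 (interval 0.046 to 0.49). For COL12A1 the difference was 0.042 (interval −0.11 to 0.19, adjusted p = 0.887). The other differences between the combinations ran from −0.16 (COL9A3) upward, and 29 of 43 genes were lower with combi-2 than with combi-1. Taking all 43 genes, 42 differed by less than 0.2.

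The genes whose products fold, export, trim, crosslink, bind or cut collagen were read from 6 lists, of which 69 genes were measured. With combi-1, 3 of 69 were called (1 higher, 2 lower), against 1.51% of all genes, and with combi-2, 3 of 69 (2 higher, 1 lower), against 0.75%. Between the combinations 1 of 69 differed, against 0.333%. The lists were written with earlier results of these data known, so these shares do not test whether collagen partners respond more than other genes. The 69 genes are all protein-coding, while the background covers all genes. The median log2 fold change over the 69 genes was 0.049 with combi-1 and 0.039 with combi-2. The called genes were enzymes of collagen modification, crosslinking and degradation.

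Of 17 genes for folding and modification in the endoplasmic reticulum, 1 fell with combi-1 (P3H2), against 0.833% of all genes called lower, and 1 with combi-2 (PLOD2), against 0.446%, and none rose. P3H2, a prolyl 3-hydroxylase that acts on type IV and other collagens, read 7.71, 7.81 and 7.51 in combi-1 arrays, 7.83, 7.86 and 7.81 in combi-2 arrays, and 8.38, 8.18 and 8.17 in NTC arrays. Each silenced array was below NTC. P3H2 fell by 0.57 with combi-1 (adjusted p = 0.0201), and its value with combi-2 was −0.41 (adjusted p = 0.10, or 0.0428 without the dimmest 40% of probe sets). Leaving out NTC replicate 1 or 2 or combi-1 replicate 1 or 3 ended the combi-1 call. That call was also lost with an ordinary linear model, with a replicate block and with only the 6 arrays compared.

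PLOD2, the lysyl hydroxylase that prepares collagen ends for stable crosslinks, read 10.67, 10.62 and 10.52 in combi-1 arrays, 9.73, 9.71 and 10.04 in combi-2 arrays, and 10.98, 10.97 and 10.97 in NTC arrays. No array of one group reached another group. PLOD2 fell by 1.15 with combi-2 (adjusted p = 0.00138), and its value with combi-1 was −0.37 (adjusted p = 0.103, or 0.0448 without the dimmest 40% of probe sets). The test of the difference gave −0.78 for combi-2 against combi-1 (adjusted p = 0.0111), a call lost without combi-1 replicate 1 or 2 or combi-2 replicate 1 or 2. Before adjustment, 4 of the 17 folding genes were lower with combi-1 at p under 0.05 (background 7.65%) and none higher (8.02%). With combi-2, 2 were lower (5.85%) and 1 higher (7.41%). CRTAP was at −0.20 with combi-1 and −0.077 with combi-2, and P3H1 at −0.15 and −0.045, none past the test. SERPINH1, the collagen chaperone HSP47, was at −0.15 and 0.020, and P4HA1, P4HA2 and P4HB of prolyl 4-hydroxylase were between −0.11 and 0.14, none past the test.

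Of 15 genes for propeptide removal and crosslinking, LOX alone was called, lower with combi-1, against 0.833% of all genes called lower. LOX, the lysyl oxidase that crosslinks collagen and elastin, read 8.28, 8.29 and 7.91 in combi-1 arrays, 8.29, 8.40 and 8.39 in combi-2 arrays, and 8.79, 8.66 and 8.69 in NTC arrays. Both silenced groups were below NTC and overlapped each other. LOX fell by 0.55 with combi-1 (adjusted p = 0.0409), and its value with combi-2 was −0.35 (adjusted p = 0.203). The combi-1 call was lost on leaving out any 1 of the 9 arrays. That call was also lost with an ordinary linear model, with a replicate block and with only the 6 arrays compared. LOXL1 to LOXL4 were between −0.082 and 0.097 in both comparisons.

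Of 7 genes for collagen degradation, MMP14 rose with both combinations and MMP1 with combi-2. With combi-1 that is 1 of 7 called higher, against 0.68% of all genes, and with combi-2 2 of 7, against 0.304%. This list too was written with earlier results known, so these shares do not test it. MMP14, the membrane-bound collagenase, read 8.82, 8.82 and 8.73 in combi-1 arrays, 8.83, 8.89 and 8.65 in combi-2 arrays, and 8.13, 8.29 and 8.35 in NTC arrays. MMP14 rose by 0.53 with combi-1 (adjusted p = 0.0193) and by 0.53 with combi-2 (adjusted p = 0.0294), with no overlap with NTC. The combi-1 call was lost without NTC replicate 1 or 2 or any 1 of the combi-1 arrays, and the combi-2 call without any 1 of the 9 arrays other than combi-2 replicate 3. Both calls were also lost with an ordinary linear model and with a replicate block, and the combi-2 call with only its own 6 arrays. MMP1, the interstitial collagenase that cuts fibrillar collagen, read 7.87, 8.21 and 7.92 in combi-1 arrays, 8.44, 8.58 and 8.78 in combi-2 arrays, and 7.72, 7.64 and 7.54 in NTC arrays. Its arrays were in 3 separate ranges, with combi-2 highest. MMP1 rose by 0.97 with combi-2 (adjusted p = 0.00873), and its value with combi-1 was 0.36 (adjusted p = 0.186). The combi-2 call was lost without NTC replicate 2 or combi-2 replicate 2, and with a replicate block (adjusted p = 0.0558 from limma). MMP1 was 0.60 higher with combi-2 than with combi-1, short of the threshold (adjusted p = 0.0999), and the difference passed when the dimmest 40% of probe sets were left out (0.0368). MMP13, another collagenase, was at 0.40 with combi-1 (adjusted p = 0.0566) and 0.091 with combi-2, on a dim probe set.

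**Figure D4:**
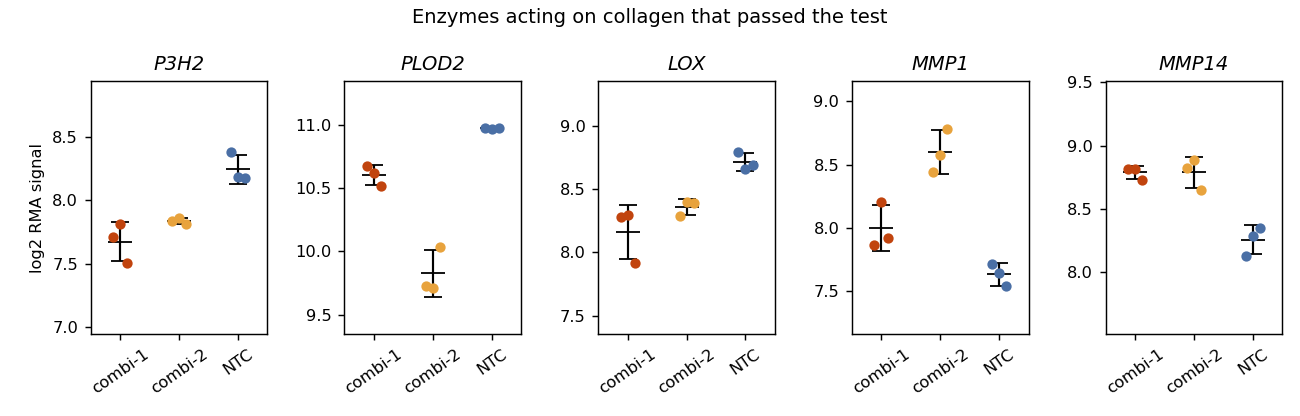
Log2 RMA signal (y axis) of P3H2, PLOD2, LOX, MMP1 and MMP14 in the 3 arrays of combi-1, combi-2 and NTC (x axis), where dots are arrays and bars the mean and SD, and each panel has its own y range. P3H2, PLOD2 and LOX are lower and MMP1 and MMP14 higher in all silenced arrays, with PLOD2 lowest in combi-2.

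No gene of the remaining lists was called by limma, and their counts at an unadjusted p under 0.05 are read against 8.02% of all genes higher and 7.65% lower with combi-1, and 7.41% higher and 5.85% lower with combi-2. Of 11 collagen receptors, 2 were higher at an unadjusted p under 0.05 with combi-1 and 3 with combi-2. ITGA2, the alpha subunit of the main epithelial collagen integrin, was at 0.17 with combi-1 and 0.34 with combi-2 (adjusted p = 0.0574), and DDR1, the epithelial discoidin receptor, at 0.31 and 0.25. ITGA1, another alpha subunit of the list, was at 0.19 with combi-1 and 0.39 with combi-2 (adjusted p = 0.168). Of 11 partners that bind fibrils, at an unadjusted p under 0.05 the counts were 1 higher and 1 lower with combi-1, and 1 higher with combi-2. FN1, fibronectin, on which cells lay down collagen, was at 0.19 and 0.26, and TGFBI, a collagen-binding matrix protein, at −0.18 and −0.11. Of 8 genes for procollagen export, with p under 0.05 before adjustment 1 was higher with combi-1, and 2 were higher and 1 lower with combi-2. SEC24D, a coat subunit of the vesicles that carry procollagen, was at 0.13 with both combinations. Other export genes moved otherwise. SEC23A was at −0.17 with combi-1 and 0.15 with combi-2, a difference of 0.33 between the combinations (adjusted p = 0.287). TRAPPC2 was at −0.19 with combi-1 and −0.29 with combi-2 (adjusted p = 0.246).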

How the data were processed

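RNA of 9 HuCCT-1 samples was hybridised by the authors to Clariom D arrays. The authors corrected the background and normalized with RMA on probe sets of a custom CDF (version 22), and deposited 1 log2 signal per probe set and array. The log2 base was read from the values. RMA pulls the arrays to 1 distribution, so a change shared by most genes would not be seen. Groups came from the sample labels, and 0 columns were left out.

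Of 39334 probe sets, 37201 carried 1 gene symbol and were tested, and 2133 with none were left out. Entrez identifiers of 37154 matched the RefSeq gene table (GRCh38.p14), which gave the gene type. Collagen genes were found by symbol among 18215 protein-coding genes. 8 other COL symbols were long non-coding RNAs or pseudogenes.

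In R 4.3.3, limma 3.58.1 fitted 3 group means on all 9 arrays (prior degrees of freedom 2.56), with Benjamini-Hochberg adjustment over the 37201 genes and a threshold of 0.05, two-sided. Intervals are at 95% from the moderated standard error. The fit was tested on simulated data. No read depth exists for arrays, and 3 arrays a group limit the precision. Arrays of a group did not overlap another where all 3 lay beyond all 3. Genes were named where called, where among the 5 smallest p-values of a comparison, where both silenced groups stood clear of NTC, or as small groups and partner chains. Besides the called genes, up to 2 genes per list of partners were named by their p with combi-1. ITGA1, SEC23A and TRAPPC2 were added for their p in the other comparisons. P4HA1, P4HA2, P4HB, SERPINH1, COL3A1 and LOXL1 to LOXL4 were added for background. The members and lists were chosen with earlier results of these data known. Alternatives were quantile normalization again, median centring, leaving out the dimmest 40% of probe sets, protein-coding genes only, trended and robust variances, an ordinary linear model, rounding to 2 decimals, a replicate block, only the 6 arrays compared and leaving out each array. Centring on protein-coding genes, and all alternatives for the partner genes and for the lean of the collagen genes, were chosen after seeing the data.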

Additional observations from a re-analysis of the deposited data

Results flagged for a closer look

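PLOD2, the lysyl hydroxylase, drew attention because its response differed between the siRNA combinations by the test of the difference itself: combi-2 against combi-1 gave −0.78 on the log2 scale (adjusted p = 0.0111 from limma), with all 3 combi-2 arrays below all 3 combi-1 arrays. The difference lost its call without combi-1 replicate 1 or 2, without combi-2 replicate 1 or 2, with a replicate block, with an ordinary linear model and with only the 6 arrays compared, at values of −0.78 to −0.72.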

How the results depend on the processing

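Over the 18 alternatives, COL8A1 kept its call with both combinations, and the count of collagen genes called in the difference stayed at 0. The count for combi-1 was 2, or 1 with the replicate block and 1 to 2 on leaving out an array. The count for combi-2 was 2, or 1 with the ordinary linear model, 1 with the block, 1 with only the 6 arrays compared and 1 to 2 on leaving out an array. The gene lost was COL12A1 each time. Replicate numbers did not pair the arrays (correlations of same-numbered arrays −0.181 to 0.0513), and with the block 206, 48 and 42 genes in all were called for combi-1, combi-2 and the difference, against 563, 279 and 124. These totals were 1067, 539 and 226 without the dimmest 40% of probe sets, 1095, 733 and 340 for protein-coding genes only, 823, 425 and 187 with trended and robust variances, 416, 275 and 73 with the ordinary linear model, 377, 55 and 54 with only 6 arrays, and 196 to 730, 81 to 358 and 48 to 124 on leaving out an array. Partner genes called with combi-1 (3) were 5 with protein-coding genes only, 0 with the ordinary linear model, 0 with the block, 1 with only 6 arrays and 0 to 3 on leaving out an array. With combi-2 (3) they were 5 without dim probe sets, 6 with protein-coding genes only, 1 with the block and 1 to 3 on leaving out an array. For the difference (1) they were 2 without dim probe sets, 2 with protein-coding genes only, 0 with the ordinary linear model, the block or only 6 arrays, and 0 to 1 on leaving out an array. Collagen genes wholly above NTC with combi-1 (29) were 20 after centring on protein-coding genes and 23 after rounding. The share of all genes after centring or rounding is not given here, so these counts cannot be read against a background. With combi-2 the collagen genes wholly above NTC were 26 without NTC replicate 3 and 29 without combi-2 replicate 3. There 2 arrays can clear 3 more easily, and the count was 11 to 29 on leaving out an array. COL9A2 with combi-2 was −0.0028 without NTC replicate 2 and −0.017 without combi-2 replicate 1, and the COL12A1 difference between combinations was −0.0054 without combi-1 replicate 1 and −0.0018 without combi-2 replicate 3. With an array left out, these ran up to 0.082 for COL9A2 and 0.095 for the COL12A1 difference. The cause was not tested.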

Other observations

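The 8 other COL symbols on the array, which are 6 long non-coding RNAs and 2 pseudogenes, were not called with either combination. COL4A2-AS1, the antisense RNA of COL4A2, was at 0.17 with combi-1 and 0.041 with combi-2, and since it lies within COL4A2 in the RefSeq table, whether its probes tell it from COL4A2 was not tested. COL6A4P2, a pseudogene of the type VI family, was at 0.14 and 0.075. COL1A2-AS1 was at −0.089 and 0.026.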
